A study of Arabidopsis thaliana with 12 samples.

Results

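The nuclear genes PSAN, LHB1B2 and AT1G22700, 3 genes of photosystem I and its light-harvesting surroundings, were each covered by 1 probe in Arabidopsis thaliana plants exposed to high light. They were found by symbol or locus in the platform's probe annotation, by a rule that uses no measured value, though earlier results of these data were known when it was written. PSAN (AT5G64040) encodes a subunit of photosystem I on the lumenal side of the thylakoid membrane. LHB1B2 (AT2G34420, also LHCB1.5) encodes a chlorophyll-binding antenna protein. AT1G22700 (PYG7) encodes a protein needed for photosystem I to accumulate. These 3 genes stand among 691 genes that 692 probes name singly on arrays of 3439 probes. None of the probes that list several genes names any of them.

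Total RNA of wild-type plants of ecotype Columbia 0 was compared between 6 samples exposed to 1000 µE for 1 h (high light) and 6 samples from plants kept at 80 µE (normal light). The titles place the normal light samples at 0 h. No sample of plants left at 80 µE for that same hour was analysed here, so light and elapsed time cannot be told apart. The labels name no tissue, plant age or batch, and do not say whether numbered samples stand for different plants, so the tests weigh a difference against a spread between samples that may be technical.

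Photosystem I takes electrons from the lumenal carrier plastocyanin and passes them to ferredoxin on the stromal side. PSAN is a small peripheral subunit that helps plastocyanin to reach the complex in Arabidopsis. The LHCB1 proteins form much of the trimeric antenna LHCII, which mainly serves photosystem II and can also pass energy to photosystem I. PYG7 is a thylakoid protein with tetratricopeptide repeats, related to cyanobacterial Ycf37, and is an assembly factor rather than a subunit of the finished complex. Plants grown in strong light are known to hold smaller antennae than plants grown in weak light.

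The deposited intensities have an arbitrary linear unit, and their distribution differed between the groups. The median probe of an array stood at 0.338 to 0.357 in high light and at 0.115 to 0.130 in normal light, whereas the 99th percentile stood at 10.2 to 10.8 in high light and 12.8 to 14.7 in normal light. Between 167 and 209 probes of an array were listed at 0 in high light, and between 396 and 470 in normal light. A direct comparison of deposited values therefore mixes the gene with the array. Each gene is given below as deposited, by its position among the 3439 probes of its own array, which no rescaling of an array can change, and as a log2 change after quantile normalisation.

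The 3 genes did not move one way. The transcripts of the antenna protein LHB1B2 and of the photosystem I subunit PSAN were lower in high light, and that of the assembly factor AT1G22700 was higher. LHB1B2 stood at 0.418 of its normal light mean as deposited. PSAN stood at 0.686 of its normal light mean, also as deposited, with overlapping groups. After quantile normalisation the log2 changes were -0.96 for LHB1B2 and -0.64 for PSAN. AT1G22700 was listed above 0 in all 6 high light samples and at 0 in 3 of 6 normal light samples. In all, 188 probes (5.47%) were at 0 in 3 or more normal light samples and in no high light sample. The reverse was met by 4 probes. In the test on normalised values, 22.0% of all probes were called lower and 15.8% higher in high light (adjusted p under 0.05). Among 28 alternative settings the call was lost in 10 for PSAN, in 13 for AT1G22700 and in 1 for LHB1B2.

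LHB1B2 was among the brightest probes of every array. Its deposited intensity in high light had a lowest value of 8.88, a median of 10.7 and a highest value of 12.1, against 17.9, 20.6 and 36.8 in normal light. Every high light sample lay below every normal light sample, and the lowest normal light value was 1.48 times the highest high light value. The means were 10.5 ± 1.26 in high light and 25.1 ± 8.53 in normal light (SD, n = 6 each). The wide spread in normal light came from samples 5 and 6, at 36.8 and 35.2, while samples 1 to 4 lay between 17.9 and 21.4.

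Counted from the brightest probe, LHB1B2 held position 31 to 45 in high light and position 14 to 25 in normal light. Expressed as a percentile of the array, it was 0.49 points lower in high light, with no overlap between the groups (exact permutation test over samples, 2-sided, p = 0.00216, the smallest that 6 against 6 samples can give, and 0.00682 adjusted over all probes). Ranks without overlap and lower in high light were found for 17.4% of all probes, and 47.9% of all probes passed the adjusted rank test in either direction, so LHB1B2 shared this behaviour with many probes. The 99th percentile of the arrays was itself lower in high light, and its part in the change of LHB1B2 was not tested. LHB1B2 equalled 0.859 to 1.15 times the 99th percentile of its array in high light and 1.39 to 2.60 times in normal light.

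After quantile normalisation LHB1B2 fell by 0.96 on the log2 scale (limma, SE 0.204, 95% interval -1.41 to -0.51, adjusted p = 0.00322). By this test 22.0% of all probes were called lower and 15.8% higher in high light. The change under the other scalings ran from -2.69 (columns brought to a common median) to -0.81 (cyclic loess) on the log2 scale, and each was called. Samples with neighbouring numbers within a group resembled each other somewhat more than other pairs did, and the labels do not say why. Neighbouring numbers correlated at 0.571 to 0.882 (mean 0.713) and other pairs within a group at 0.45 to 0.771 (mean 0.613), with overlap. When samples 1 with 2, 3 with 4 and 5 with 6 were averaged, the call was lost (adjusted p = 0.0964), in a comparison that called 22.1% of all probes, and without samples 5 and 6 the fall was 0.67 (adjusted p = 0.0163).

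**Figure D1:**
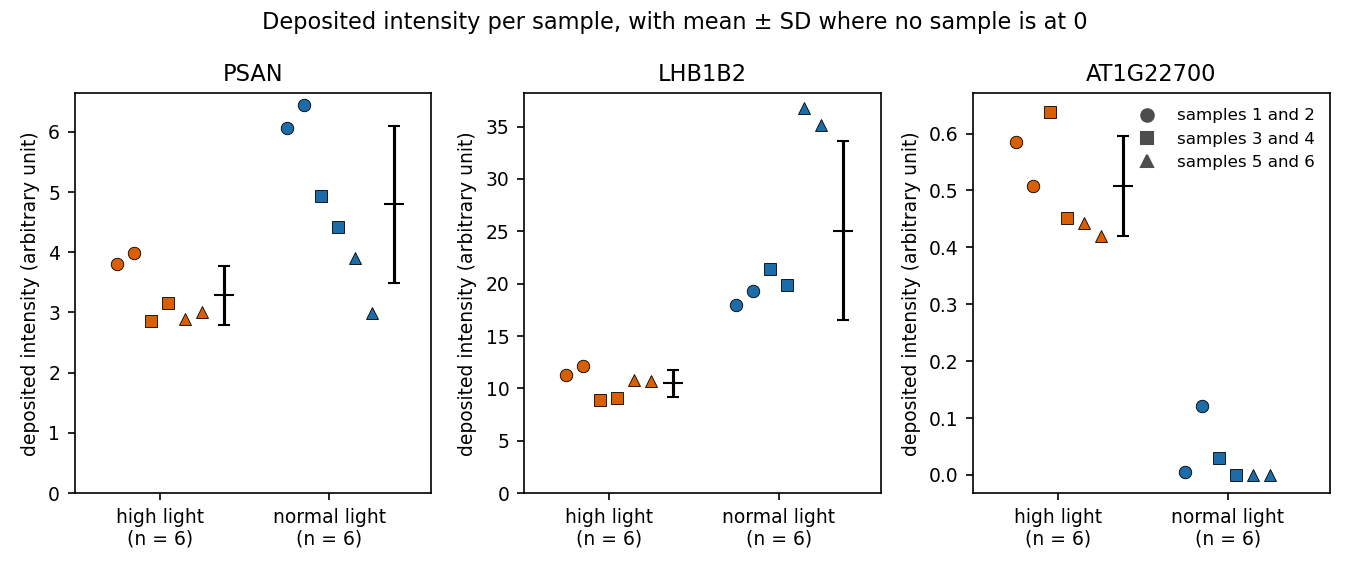
Deposited intensity (arbitrary unit, linear axis) of PSAN, LHB1B2 and AT1G22700 in each of the 6 high light and 6 normal light samples, with the symbol giving the sample numbers and bars giving mean ± SD where no sample is at 0. All 6 high light samples of LHB1B2 lie under the normal light samples, PSAN overlaps through normal light samples 5 and 6, and AT1G22700 is at 0 in 3 normal light samples.

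PSAN, the subunit of photosystem I, was less bright than LHB1B2 and changed less clearly. Its deposited intensity in high light had a lowest value of 2.86, a median of 3.08 and a highest value of 4.00, against 2.99, 4.68 and 6.45 in normal light. The means were 3.29 ± 0.492 in high light and 4.79 ± 1.31 in normal light (SD, n = 6 each). Normal light samples 5 and 6, at 3.91 and 2.99, lay inside the range of the high light samples, and the other 4 normal light samples, from 4.43 upwards, lay above it.

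PSAN held position 110 to 175 from the brightest probe in high light and position 78 to 149 in normal light. Its percentile was 1.43 points lower in high light (exact permutation test, 2-sided, p = 0.0152, and 0.0342 adjusted over all probes), with overlap. PSAN lies near the array's 95th percentile, which was higher in high light, at 2.85 ± 0.10 against 2.32 ± 0.230 in normal light (SD, n = 6 each). The 99th percentile was lower in high light, at 10.5 ± 0.202 against 13.7 ± 0.684. PSAN equalled 0.314 ± 0.0485 times the 99th percentile of its array in high light and 0.351 ± 0.101 times in normal light, with overlap. The part of these array shifts in the change of PSAN was not tested.

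After quantile normalisation PSAN fell by 0.64 in log2 units (limma, SE 0.201, 95% interval -1.08 to -0.20, adjusted p = 0.0269). The change was negative under every scaling tried, from -0.51 as deposited to -1.999 with a common median. The call was lost with cyclic loess (adjusted p = 0.0716), with samples of neighbouring numbers averaged (adjusted p = 0.200), and in 7 of 12 fits that left out 1 sample (highest adjusted p = 0.0582). The 7 were those without high light sample 3, 4, 5 or 6 or without normal light sample 1, 2 or 3. Without samples 5 and 6 of both groups the fall was 0.75 (adjusted p = 0.0193).

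**Figure D2:**
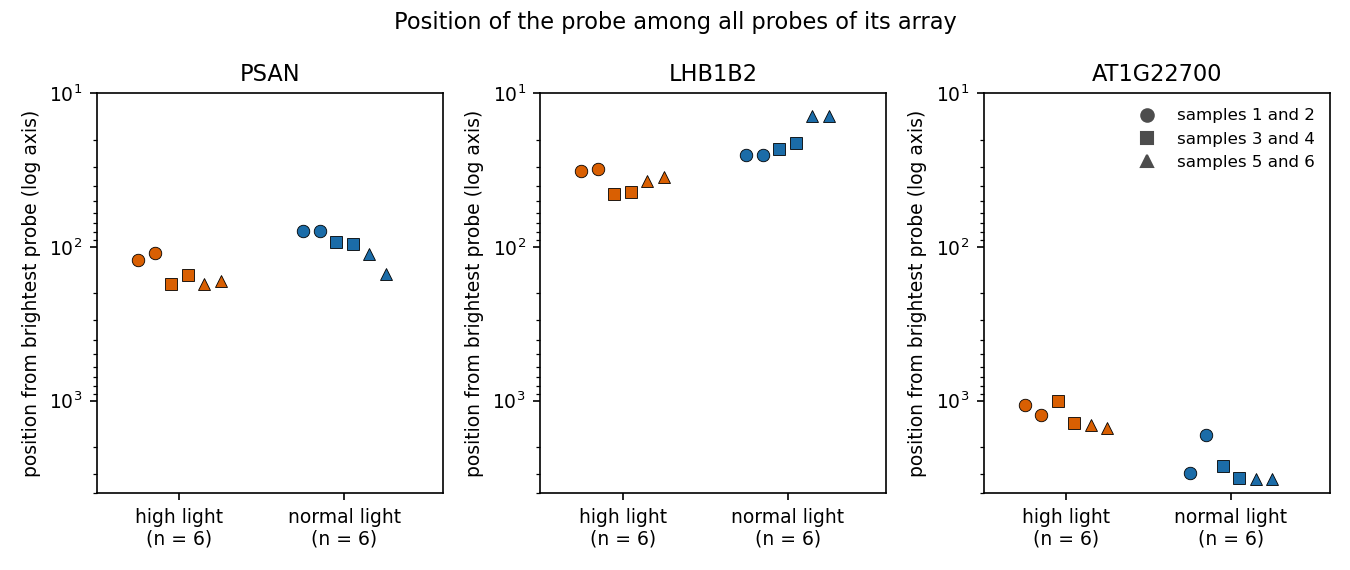
Position of each probe counted from the brightest of the 3439 probes of its array (log axis, brightest at the top) for the 6 high light and 6 normal light samples, with symbols as sample numbers. LHB1B2 stands at position 31 to 45 in high light and 14 to 25 in normal light, PSAN overlaps, and AT1G22700 stands at position 1007 to 1512 in high light, above all normal light samples.

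AT1G22700, the assembly factor, was a dim probe with the opposite direction. Its deposited intensity in high light had a lowest value of 0.420, a median of 0.480 and a highest value of 0.638. In normal light it was listed at 0 in samples 4, 5 and 6, at 0.00579 in sample 1, at 0.0300 in sample 3 and at 0.121 in sample 2. The groups did not overlap, and the lowest high light value was 3.47 times the highest normal light value. As deposited, 1698 of the 3439 probes were called higher and 194 lower (limma, adjusted p under 0.05). Lack of overlap was counted over all probes by rank only, where 14.4% were higher in high light without overlap. The sources used here do not say what a 0 stands for, so it is not read as absence of the transcript.

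The median probe was also brighter in high light as deposited, and its part in this gap was not tested. Relative to the median probe of its array, AT1G22700 stood at 1.18 to 1.89 in high light and at 0 to 1.04 in normal light, so that normal light sample 2 came within a factor of 1.14 of the lowest high light sample. The pattern of a probe at 0 in 3 or more normal light samples and in no high light sample was met by 188 probes (5.47% of all), 37 of them among the 692 with a single gene. The reverse pattern was met by 4 probes.

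By position, AT1G22700 stood at 1007 to 1512 from the brightest probe in high light. In normal light it stood at 1671 in sample 2, at 2681 and 2949 in samples 3 and 1, and among the tied zeros in the rest. Its percentile averaged 62.8 ± 6.06 in high light and 17.8 ± 17.6 in normal light (SD, n = 6 each, tied zeros given their mean rank), a difference of 45.0 points (exact permutation test, 2-sided, p = 0.00216, the smallest possible, and 0.00682 adjusted over all probes). Ranks without overlap and higher in high light were found for 14.4% of all probes.

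The log2 change of AT1G22700 depends on the number put in place of 0. With each 0 replaced by the smallest value above 0 that was deposited, quantile-normalised values gave a change of 8.52 with an SE of 2.91 (limma, adjusted p = 0.0388), which is no measure of fold. With all values under 0.05 raised to 0.05 the change was 2.29 (SE 0.373, 95% interval 1.48 to 3.11, adjusted p = 3.2e-04). The floor gives 4 of the 6 normal light samples one and the same value, so this interval and the p values with the floor leave out most of the spread in normal light, and the size follows the floor. With that floor the adjusted p was 0.00545 when samples of neighbouring numbers were averaged and 0.0121 without samples 5 and 6. Without the floor the call was lost in both (adjusted p = 0.161 and 0.247) and in 9 of 12 fits that left out 1 sample, all but those without normal light sample 1, 2 or 3. The change was positive under each scaling, but with cyclic loess fitted through the zeros the groups overlapped.

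**Figure D3:**
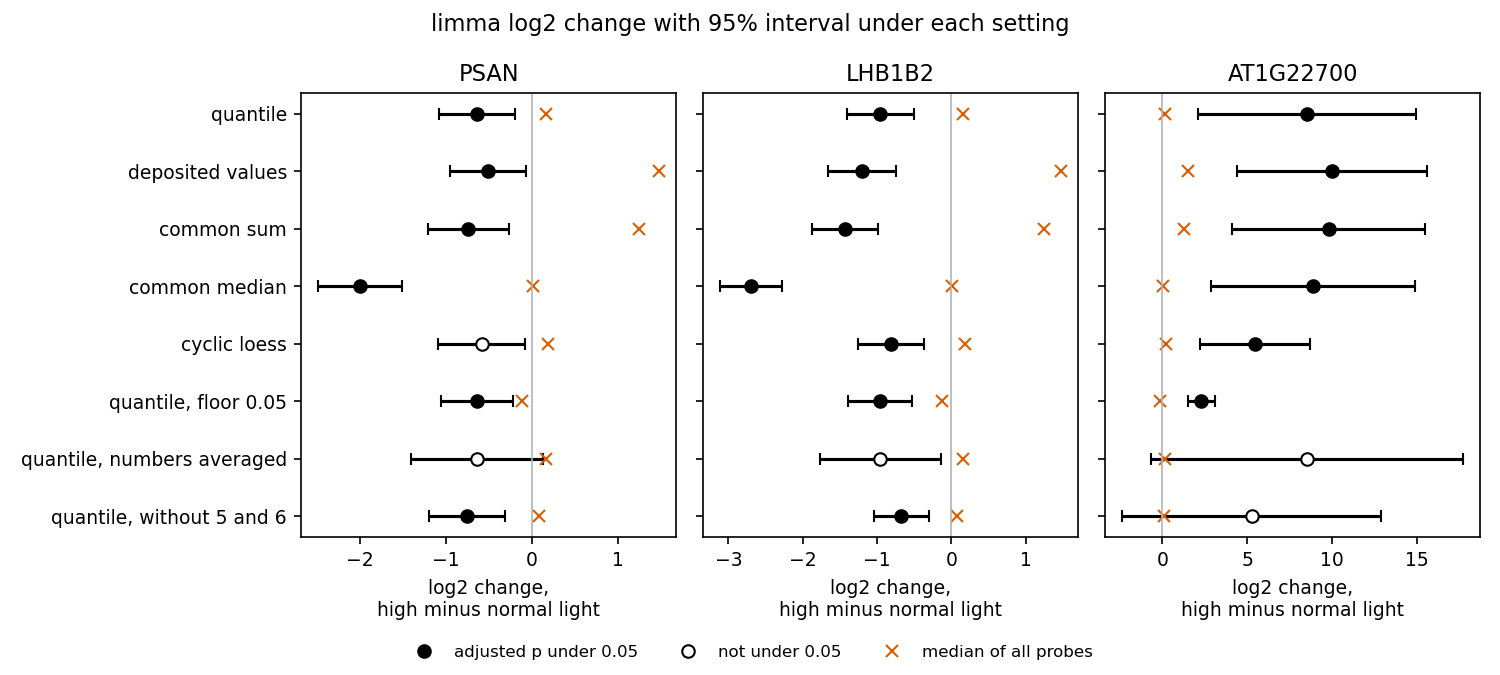
Change in limma (log2, high minus normal light) with its 95% interval for PSAN, LHB1B2 and AT1G22700 under 5 scalings and 3 further settings, with filled points for an adjusted p under 0.05 and crosses for the median of all probes. PSAN and LHB1B2 lie below 0 and below the median probe in every row, and the size for AT1G22700 drops to 2.29 with a floor of 0.05.

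Because a factor common to an array cancels in a ratio of probes of that array, the changes of the 3 genes were also set against each other within arrays, in 3 ratios of deposited intensities. The arrays differed by more than a common factor. The median probe was higher in high light (mean 0.348 against 0.124) and the 99th percentile lower (mean 10.5 against 13.7). A ratio of probes of unlike brightness can keep that difference, and its part in these ratios was not tested. Such a ratio shows unequal change of signal and compares no levels. The ratio of PSAN to LHB1B2 was -1.68 ± 0.150 on the log2 scale in high light and -2.37 ± 0.841 in normal light (SD, n = 6 each). The difference of 0.69 did not pass the test (exact permutation test, 2-sided, p = 0.0649), so a smaller fall of PSAN than of LHB1B2 was not shown. On quantile-normalised values the difference was 0.32 (exact permutation p = 0.409). As deposited it was 0.27 without samples 5 and 6 (exact permutation p = 0.286). Without normal light sample 1 it passed (0.85, exact permutation p = 0.0152), as it did without normal light sample 2 (0.85, exact permutation p = 0.0173).

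The spread of this ratio lay on the normal light side. In high light the 6 ratios ran from -1.90 to -1.53. In normal light samples 1 and 2 stood at -1.56 and -1.58, within the high light range, samples 3 and 4 at -2.12 and -2.17, and samples 5 and 6 at -3.23 and -3.56. The genes ran against each other across these pairs of normal light samples. PSAN averaged 6.26, 4.68 and 3.45 in samples 1 and 2, 3 and 4, and 5 and 6, while LHB1B2 averaged 18.6, 20.6 and 36.0. In high light the same pairs averaged 3.90, 3.01 and 2.95 for PSAN and 11.7, 8.99 and 10.7 for LHB1B2.

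**Figure D4:**
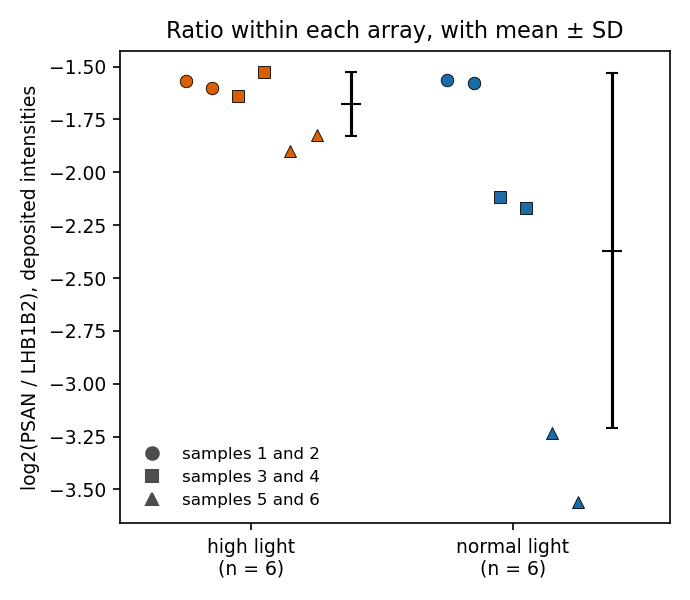
Log2 ratio of the deposited intensities of PSAN and LHB1B2 within each array for the 6 high light and 6 normal light samples, with mean ± SD and symbols as sample numbers. The high light ratios lie between -1.90 and -1.53, and the normal light ratios reach from -1.56 in sample 1 to -3.56 in sample 6.

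By numbers, LHB1B2 in high light stood at 0.630 of normal light for samples 1 and 2, at 0.436 for samples 3 and 4, and at 0.298 for samples 5 and 6. For PSAN the corresponding shares were 0.624, 0.643 and 0.856. The numbers were not taken to pair the groups, so these shares are not matched falls. They also carry the spread of the normal light averages given above and the scale of the arrays, and the part of sample number in them was not tested. AT1G22700 averaged 0.547, 0.545 and 0.431 in the 3 pairs of high light samples, against 0.0634, 0.0150 and 0 in those of normal light.

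The ratio of AT1G22700 to either of the other genes has a log2 value only in the 9 arrays where AT1G22700 was above 0, and the normal light side then rests on 3 dim values. Over these 6 high light and 3 normal light arrays the log2 ratio was higher in high light by 5.01 against PSAN and by 5.09 against LHB1B2 as deposited. The arrays were kept by the measured value of AT1G22700, so the difference is given as a description, with no test. In high light the ratio to PSAN ran from -2.97 to -2.16, and in normal light it was -10.0, -7.36 and -5.74 in samples 1, 3 and 2. On quantile-normalised values the differences were 2.71 and 2.40, and leaving out 1 array moved the deposited ones between 3.85 and 6.00 for PSAN and between 4.02 and 6.16 for LHB1B2. The 3 arrays without a ratio were those of normal light with AT1G22700 at 0.

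Few other genes of this part of photosynthesis were measured by a probe of their own. Of 85 genes in 7 lists written with earlier results of these data known, 6 had one, of which 3 were called higher and 3 lower, beside 126 higher and 147 lower among the 692 single-gene probes and the shares of 15.8% and 22.0% over all probes given above. PSAN was the measured 1 of 17 photosystem I subunits, AT1G22700 the measured 1 of 9 assembly factors and LHB1B2 the measured 1 of 21 antenna proteins. No gene was measured this way for antenna import, insertion and phosphorylation (7 genes), for the light-stress relatives of the antenna such as ELIP1 (9 genes), or for the electron carriers around photosystem I such as plastocyanin (10 genes). Among probes that list several genes, 1 included a gene of the antenna list and 2 included a light-stress relative. Their values were not read for these genes. By single-gene probes each of these groups thus rests on 1 gene or none, and says nothing of its other members.

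For photosystem II, 3 of 12 listed subunits were measured, and 2 rose and 1 fell, too few to set against those shares. PSB27 (AT1G03600), a lumenal protein that assists the assembly of photosystem II, stood at 2.34 ± 0.418 in high light and 0.735 ± 0.125 in normal light as deposited (SD, n = 6 each). After quantile normalisation it rose by 1.05 in log2 units (limma, SE 0.151, adjusted p = 2.5e-04) and by 0.18 with a common median. PSBW, a small subunit, rose by 1.06 and PSBY, another, fell by 1.15, with the rise of PSBW turning to -0.49 with a common median. Over the 6 measured genes of the lists, PSAN, LHB1B2 and AT1G22700 included, the median change was 0.21. It was 0.26 for the 692 probes of a single gene and 0.16 for all probes. No listed gene stood near that median. The 3 lower genes lay at -0.64 or below and the 3 higher ones at 1.05 or above, so it describes none of them.

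The single-gene probes whose profile over samples came nearest to each gene were picked by the root mean square difference of quantile-normalised log2 values, after each profile was centred on its mean. For PSAN these were AT1G55440, AT4G15840 and AT3G54550, at 0.122, 0.245 and 0.278 over 12 samples, where the median of the 421 candidates was 0.690. AT1G55440 fell by 0.55 after normalisation, but its deposited intensity was 1.07 ± 0.137 in high light and 0.951 ± 0.206 in normal light, the reverse of PSAN. For LHB1B2 the nearest were AT4G16610, AT2G48130 and AT4G14050, at 0.286, 0.294 and 0.299, with a median of 0.744. As deposited, AT4G16610 stood at 0.648 ± 0.0490 in high light and 0.660 ± 0.182 in normal light, and AT4G14050 at 1.79 ± 0.116 in high light and 2.02 ± 0.359 in normal light (SD, n = 6 each), closer together than the groups of LHB1B2. For AT1G22700, over the 9 samples where it was above 0, they were AT2G25640, AT4G17260, a lactate dehydrogenase gene, and AT1G61990, at 0.381, 0.428 and 0.435, with a median of 1.18.

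LHB1B2 belongs to a family of near-identical genes, and the platform annotation gives its probe to LHB1B2 alone. In the RefSeq table of assembly TAIR10.1 its next protein-coding neighbour is LHB1B1 (AT2G34430, LHCB1.4), another LHCB1 gene. None of the other LHCB1 genes had a single-gene probe. Without probe sequences, signal from related transcripts on the LHB1B2 probe was not tested. The same table lists 2 transcripts for PSAN, 3 for AT1G22700 and 1 for LHB1B2, and the probes do not tell such transcripts apart here.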

How the data were processed

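Intensities of 12 array samples were deposited by the authors as 1 table of 3439 probes, on a linear scale from 0 to about 100. Background correction, scaling and filters are not given in the sources used here. Groups and sample numbers came from the titles. Probes were named by the platform annotation and the names brought up to date with the RefSeq table of assembly TAIR10.1 (690 of 692 single-gene probes matched). No probe or gene sequences were used here.

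Values were quantile-normalised between arrays, because column medians differed. Zeros were then set to the lowest positive deposited value, 9.01e-06, and the groups' log2 values were tested with limma 3.58.1 (R 4.3.3, lmFit followed by eBayes, 2-sided), with Benjamini-Hochberg adjustment over all probes and a threshold of 0.05. Percentile ranks and within-array ratios were compared by exact permutation tests over samples. The limma fit and the permutation test of percentile ranks were tested on simulated data. Named genes are the 3 members, the listed genes measured by a single-gene probe, and the 3 nearest profiles of each member among single-gene probes above 0 in all 12 samples. The members and lists were chosen with earlier results of these data known. Alternatives were other scalings, floors, offsets, filters, weights, blocks, averaged neighbouring numbers and left-out samples. A common sum of intensities, the rank test adjusted over all probes and the floor of 0.05 combined with averaged or left-out samples were added after the data were seen. The number of arrays limits the precision.

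Deviations of same-numbered samples from their group means correlated at -0.00632 to 0.0646 across groups, so the numbers were not taken to pair the groups.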

Additional observations from a re-analysis of the deposited data

Results flagged for a closer look

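For AT1G22700 in normal light, sample 2 stood far from the other 5, at a deposited intensity of 0.121 against 0 to 0.0300 (0.752, the distance to its neighbour as a share of the group's range), and likewise by percentile in the array, at 51.4 against 5.99 to 22.1 (0.646). The rank difference of 45.0 points was 51.7 without that sample.

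For the log2 ratio of AT1G22700 to PSAN in high light, sample 3 stood apart at -2.16, against -2.97 to -2.70 in the others (0.666). These are 3 of 16 groups of 6 values examined, and the first 2 use the same sample. The cut-off used is one that about 1 in 20 groups of independent values would pass. Here the groups share samples, and the first holds tied zeros on a linear scale, so that rate does not carry over.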

How the results depend on the processing

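The changes, ranks and ratios of PSAN, LHB1B2 and AT1G22700 kept their direction under the alternatives run, while PSBW, outside these 3 genes, turned with a common median (-0.49). The call of LHB1B2 in limma was kept in 27 of 28 alternatives and lost only with neighbouring numbers averaged (-0.96, adjusted p = 0.0964), which called 759 probes against 1300. PSAN was called in 18 of 28. It lost its call with cyclic loess (-0.58), with neighbouring numbers averaged, also with the floor of 0.05 (-0.64 in both, adjusted p = 0.200 and 0.126), and in 7 of 12 fits without 1 sample, at -0.64 to -0.56, where all 12 gave -0.76 to -0.56. AT1G22700 was called in 15 of 28. It lost its call with neighbouring numbers averaged or as a random block and with the replicate block (8.52 in each, adjusted p = 0.161, 0.0803 and 0.058), without samples 5 and 6 (5.25), and in 9 of 12 fits without 1 sample, at 7.18 to 8.56, where all 12 gave 7.18 to 10.1. The difference between PSAN and LHB1B2 was 0.46 to 0.85 without 1 sample. Averaging neighbouring numbers leaves the rank differences as they are by arithmetic (-1.43 points for PSAN, 45.0 for AT1G22700 and -0.494 for LHB1B2). The exact permutation p was then 0.2 for PSAN and 0.1 for the others, the smallest that 3 against 3 can give, so that no rank difference could pass there. With the replicate block, limma called 1195 probes, and PSAN and LHB1B2 kept their calls (adjusted p = 0.0147 and 0.0192). Same-numbered samples correlated best with each other for 4 of 12 samples.

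Scaling moved the split of calls. Quantile normalisation gave 543 higher and 757 lower, deposited values 1698 and 194, a common sum 1438 and 274, a common median 393 and 911, and cyclic loess 551 and 636. The median probe shifted by 1.47 as deposited. Signal over background is unknown, and the zeros limit what can be said of AT1G22700. No ratio of AT1G22700 was run with averaged numbers or the block, because normal light samples 5 and 6 were at 0.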
